A study of Mus musculus with 24 samples.

Results

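The genes described here are the interleukins, their receptors and antagonists, the leukaemia inhibitory factor and oncostatin M genes with their receptors (Lif, Lifr, Osm, Osmr), and the colony-stimulating factors Csf1, Csf2 and Csf3. They were chosen by symbol alone, as every gene whose symbol starts with Il and a digit plus those 7. Of 49982 genes in the 3 count tables, 91 met the rule, and 81 of these had a count in at least 1 of the 24 libraries. The libraries came from mouse mammary tumour lines 4T07, D2A1 and EMT6, transduced with mCherry and with mVenus-p27K, a fluorescent p27 reporter that accumulates in non-dividing cells. In each case 250000 cells had been placed in the mammary fat pad of female Balb/cJ mice, and tumours were taken at 14 days. Sorting split each of 4 tumours per line into p27K high cells, which the labels call quiescent cancer cells, and p27K negative cells of the same tumour, which gave 4 pairs of bulk RNA-seq libraries per line. Both gates carried both reporters, so neither is an untransduced control, and the hosts had an intact immune system. The labels name a CD45 stain before sorting but not which cells it kept.

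Interleukins are secreted signals that bind receptors built from a private chain and a chain shared with other cytokines. The shared chains define families: gp130 (Il6st) for IL-6, IL-11, LIF and oncostatin M, the common gamma chain (Il2rg) for IL-2, IL-7, IL-15 and IL-21, and the IL-4 receptor alpha chain (Il4ra) for IL-4 and IL-13. Most of these receptors signal through JAK kinases and STAT transcription factors, whereas the IL-1 and IL-17 families signal through MyD88 or Act1, IRAK kinases and TRAF6. Many of the genes are read mainly in leukocytes, and some receptors and ligands also in epithelial and tumour cells.

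Levels are given as CPM, the counts of a gene relative to the total of its library, scaled by TMM, in tumour order 1 to 4, except that the EMT6 columns carry the numbers 0, 1, 2 and 4. A change is the log2 ratio of the high over the negative gate within tumours from edgeR's quasi-likelihood test, ± SE over 4 tumour pairs. A gene is said to have risen or fallen where the p-value, adjusted over all genes tested in that line, was under 0.05. Library totals were 27887221 to 45460880 counts in 4T07 and 13769682 to 20142013 in EMT6. In D2A1 the high gate had 6727594 to 20174767, and 3 of the 4 negative libraries had only 1335433 to 2110563, so a gene at 1 CPM rested there on 1 or 2 counts. Each line was also a separate sequencing run, so line and run cannot be told apart.

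Markers of several cell types moved with the gate, most widely in 4T07. All 13 macrophage and monocyte markers fell there, from a summed 469 to 1125 CPM in the negative libraries to 91.7 to 122 CPM in the high ones, and none was at 0. Neutrophil markers fell for 4 of 7 tested (62.2 to 77.0 against 19.0 to 59.0 CPM), and T and NK cell markers for 3 of 5 (3.17 to 4.75 against 1.05 to 1.97 CPM). Trac was not among the genes counted in 4T07. In D2A1 the macrophage sum was lower in the high gate of each tumour, with overlap between tumours. It was 19.3 to 60.4 CPM negative and 12.3 to 30.7 CPM high, and 0 of 8 tested were called by edgeR. In EMT6 it was low in both gates (25.6 to 34.3 CPM negative, 33.4 to 44.8 CPM high, Csf1r and Cd68 of 6 tested risen and Mrc1 fallen). Without Csf1r and Cd68 the EMT6 sum of the other 11 was lower in the high gate of every tumour (7.07 to 9.67 against 10.9 to 17.2 CPM). S100a8 was the only neutrophil marker tested in D2A1 and EMT6, and it rose in both. The neutrophil sums were 2.11 to 4.43 CPM negative and 5.02 to 8.81 CPM high in D2A1. In EMT6 they were 0.939 to 2.40 CPM negative and 1.62 to 2.57 CPM high. Endothelial markers fell for 3 of 4 tested in 4T07 (7.26 to 12.3 against 1.62 to 4.15 CPM) and for 2 of 2 in D2A1 (9.79 to 25.2 against 0.429 to 5.56 CPM), with no overlap in either. In EMT6 none was tested, and the sum was 1.76 to 13.1 CPM negative and 0.998 to 6.32 CPM high. Fibroblast marker sums were higher in the high gate of 4T07 (1533 to 2304 against 625 to 777 CPM), where Pdgfra, Pdgfrb and Dcn of 7 tested rose and Pdpn fell, and in EMT6, where 7 of 8 rose. Without Pdgfra and Dcn the 4T07 sum was lower in 3 of 4 tumours (69.4 to 121 CPM high, 70.2 to 142 CPM negative). Some fibroblast markers were abundant in both gates, such as Col1a2 in EMT6 (3305 to 4320 CPM negative, 4117 to 5508 CPM high). Which cells these transcripts came from was not tested. Of the mammary epithelial markers, Krt8 fell in 4T07, D2A1 and EMT6 (-0.48, -2.46 and -0.30). Krt18 fell in 4T07, and Krt19 rose in 4T07 and EMT6. The D2A1 sums of these markers were 62.7 to 457 CPM negative, highest in tumour 1, and 92.8 to 203 CPM high. Their part in the D2A1 changes was not tested. In bulk libraries, fewer cells of a type and less RNA per cell cannot be told apart.

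Of the 91 genes, 51 passed the filter on low counts in 4T07, 33 in D2A1 and 37 in EMT6, and 30 passed in all 3 lines. In 4T07, 10 rose in the high gate and 17 fell, 27 of 51, where 45.7% of all genes tested were called (22.1% risen, 23.6% fallen); without tumour 1, 17 of 50 were called. In D2A1, 16 of 33 rose, where 29.5% of all genes were called and 14.9% rose, and none of the 33 fell, where 14.7% did: 0 passed downward at an unadjusted p under 0.05, and DESeq2 also called 0 lower. Without tumour 3, Il15ra and Csf1 were called lower in D2A1 (changes -0.96 and -0.25, adjusted p = 0.0150 and 0.0455). In EMT6, 19 of 37 rose and 4 fell, where 49.2% of all genes were called: 24.1% rose and 25.1% fell. Without the tumour block, 10 rose and 0 fell in EMT6. Every high library lay above every negative one for 4 of the 51 in 4T07, 11 of 33 in D2A1 and 10 of 37 in EMT6, where 17.1%, 15.3% and 15.0% of all genes did. Every high library lay below every negative one for 14, 2 and 0 of them, where 21.0%, 15.6% and 19.3% of all genes did. The median change of those tested was -0.13 in 4T07, 0.51 in D2A1 and 0.38 in EMT6, beside -0.00, 0.02 and 0.02 over all genes. Scaling by total count in place of TMM gave 7 risen and 19 fallen in 4T07, where it moved the median of all genes by -0.14.

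By role, receptors made up most of the calls, as they did of the genes tested: 6 of 30 rose and 11 fell in 4T07, 10 of 22 rose in D2A1, and 11 of 23 rose and 2 fell in EMT6. Ligands rose for 4 of 19 and fell for 5 in 4T07, rose for 6 of 10 in D2A1, and rose for 7 of 12 and fell for 2 in EMT6. Across lines, 41 genes were called at least once. The 4 that rose in all 3 lines were Il4ra, Il13ra1, Il13ra2 and Il11, which is 4 of the 30 tested in all 3, where the share over all genes was 6.41%. None fell in all 3, where the share was 9.62%. Il12rb1, Il15ra and Il24 fell in both 4T07 and EMT6. Il1r1 and Il1rn fell in 4T07 and rose in EMT6.

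**Figure D1:**
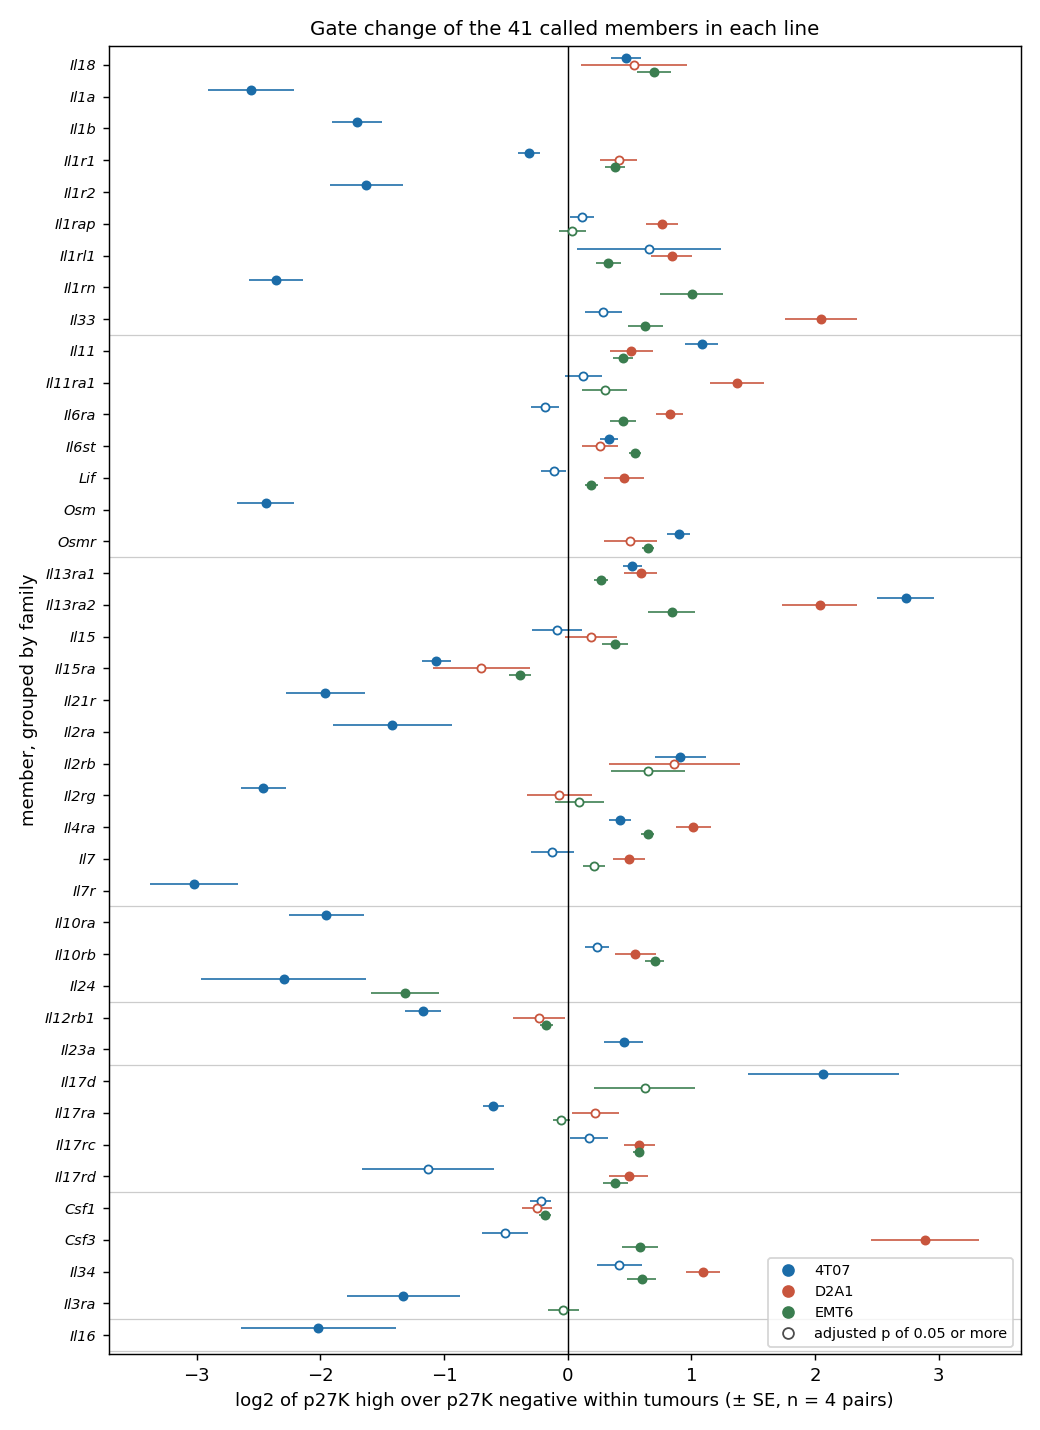
Change of each of the 41 genes called in at least 1 line, on the x axis as log2 of the high over the negative gate (± SE, n = 4 tumour pairs), grouped by family on the y axis. Filled points passed an adjusted p of 0.05. Il4ra, Il13ra1, Il13ra2 and Il11 lie right of 0 with filled points in all 3 lines, and the points left of -1 are nearly all 4T07.

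Il4ra, Il13ra1 and Il13ra2, which encode receptor chains for IL-4 or IL-13, were higher in the p27K high gate of every line. Il4ra, the chain both cytokines share, lies at chr7:125552120-125579474 on the plus strand of GRCm38. In 4T07 it measured 66.6, 57.5, 67.2 and 64.8 CPM in the negative gate and 92.8, 76.1, 78.0 and 96.9 CPM in the high gate, a change of 0.42 ± 0.09 (adjusted p = 0.00698). The D2A1 tumours had 33.4, 34.2, 26.0 and 35.4 CPM and 69.7, 60.8, 70.0 and 64.0 CPM, a change of 1.02 ± 0.14 (adjusted p = 0.000121). In EMT6, levels went from 33.6, 39.8, 41.4 and 43.8 CPM to 52.0, 66.2, 61.2 and 69.1 CPM, a change of 0.65 ± 0.05 (adjusted p = 1.1e-05). Every high library lay above every negative library within each line. The 4T07 call was just lost without tumour 1 or tumour 4 (adjusted p = 0.0509 and 0.0513). The size of the rise differed between lines, with an adjusted p of 0.0130 for the difference, against 24.5% of all genes that differed at this threshold.

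Il13ra1 pairs with Il4ra to form the receptor of non-haematopoietic cells for both cytokines (chrX:36112110-36171259, plus strand). It went from 147, 257, 168 and 192 to 234, 348, 223 and 286 CPM in 4T07, a change of 0.52 ± 0.08 (adjusted p = 0.00170). D2A1 showed 46.0, 72.5, 53.1 and 70.9 CPM negative and 89.7, 111, 64.3 and 103 CPM high, a change of 0.59 ± 0.13 (adjusted p = 0.00449). All 4 tumours rose in both lines, although the ranges of the gates overlapped between tumours, and the 4T07 call was lost without the tumour block (adjusted p = 0.0648). In EMT6 the values were 78.0, 72.3, 93.3 and 90.1 CPM and 98.0, 94.2, 103 and 106 CPM, without overlap, a change of 0.27 ± 0.05 (adjusted p = 0.00252).

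Il13ra2, which binds IL-13 tightly and acts largely as a decoy, had the largest rise of the 3 chains in each line (chrX:147383476-147429192, minus strand). In 4T07 it went from 2.17, 3.09, 1.44 and 3.21 CPM to 15.3, 34.1, 7.77 and 14.3 CPM, a change of 2.73 ± 0.23 (adjusted p = 0.000105). The corresponding D2A1 levels were 8.17, 9.36, 2.77 and 2.88 CPM and 13.2, 25.1, 21.2 and 18.9 CPM, a change of 2.04 ± 0.31 (adjusted p = 0.000258). EMT6 had 1.58, 1.70, 2.48 and 2.69 CPM negative and 3.16, 3.17, 5.44 and 3.44 CPM high, a change of 0.84 ± 0.19 (adjusted p = 0.00499). The gates did not overlap in any line, and the change differed between lines (adjusted p = 0.00476). The negative D2A1 libraries of tumours 1 to 3 held few reads of this gene, with 5 counts in the lowest negative library of that line. The ligands were scarce. Il13 was not tested in any line, and 1 library stood out, the 4T07 high library of tumour 2 with 1.46 CPM, where the next highest library of any line had 0.936 CPM. Il4 had no count in 4T07 and was not called in D2A1 (change 0.50 ± 0.39) or EMT6 (0.73 ± 0.28, adjusted p = 0.0597), where it was at most 4.02 and 1.65 CPM.

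The fourth gene that rose in every line was Il11, a gp130 cytokine (chr7:4772373-4782859, minus strand). Levels in 4T07 went from 90.0, 90.0, 51.2 and 54.1 CPM to 171, 273, 96.7 and 100.4 CPM, a change of 1.08 ± 0.13 (adjusted p = 0.000641). In D2A1 they were 15.6, 22.9, 13.8 and 17.9 CPM and 25.4, 30.0, 28.1 and 20.7 CPM, a change of 0.51 ± 0.17 (adjusted p = 0.0398), higher in all 4 tumours with overlap between tumours. That call was lost with DESeq2 (adjusted p = 0.0560), without tumour 1, 2 or 3 (0.135, 0.0861 and 0.0768) and with all D2A1 libraries thinned to 1 depth (0.326). EMT6 levels were 17.1, 22.4, 20.7 and 20.5 CPM and 27.1, 31.4, 26.6 and 25.0 CPM, without overlap, a change of 0.45 ± 0.08 (adjusted p = 0.00125). The lines differed in this change, with an adjusted p of 0.0182. Fibroblast marker sums were also higher in the high gate of 4T07, there through Pdgfra and Dcn while Pdpn fell, and in EMT6 with overlap (7538 to 10074 against 5670 to 7872 CPM). In D2A1, 2 of 8 fibroblast markers rose and 4 fell, and their part in the rise of these 4 genes was not tested.

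**Figure D2:**
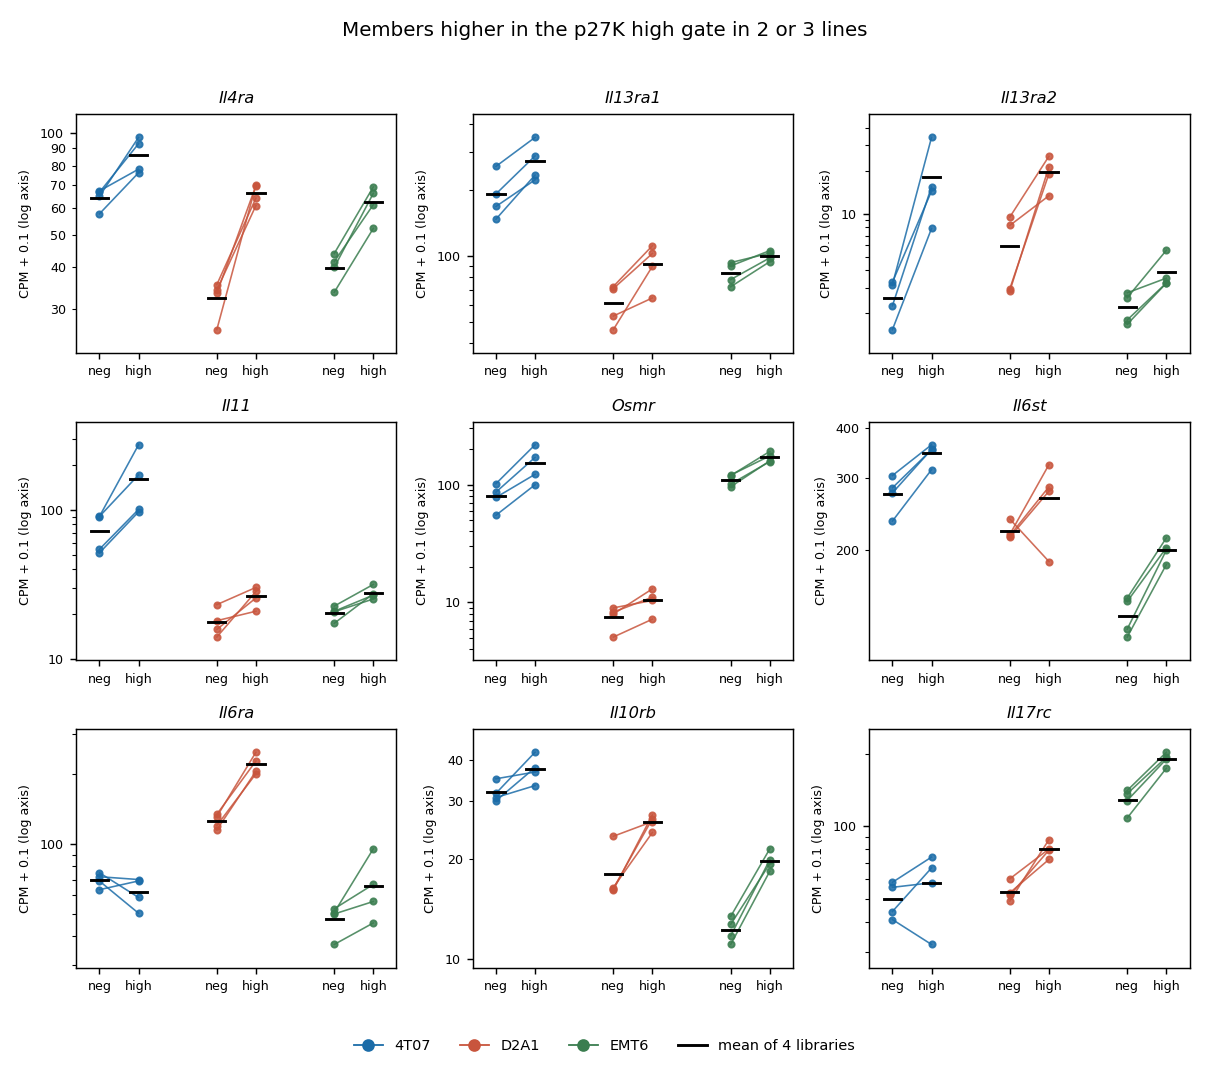
Levels (CPM + 0.1, log axis) of 9 genes that rose in at least 2 lines, with lines joining the 2 gates of 1 tumour and black bars at the mean of 4 libraries. For Il4ra all 4 tumours of each line go up, from 57.5 to 67.2 CPM to 76.1 to 96.9 CPM in 4T07, whereas Il6ra goes up in D2A1 and EMT6 and not in 4T07.

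The promoters of the genes that rose in all 3 lines are shown because these genes moved together. Each stretch is the 250 bases before a transcript start in RefSeq (GRCm38.p6), read along the gene's own strand, and 71 of the 91 genes had a window. Il11 has 2 listed starts. The coordinates are chr7:125552021-125552270 (plus strand) for Il4ra, chrX:36111858-36112107 (plus) for Il13ra1, chrX:147429193-147429442 (minus) for Il13ra2, and chr7:4782858-4783107 and chr7:4778142-4778391 (both minus) for Il11. The RefSeq start of Il4ra lies downstream of the gene start given above (125552120, from GENCODE), so its window partly overlaps the gene. Capitals mark the AP-1 letters TGANTCA, which read the same on both strands apart from the middle base.
Il4ra: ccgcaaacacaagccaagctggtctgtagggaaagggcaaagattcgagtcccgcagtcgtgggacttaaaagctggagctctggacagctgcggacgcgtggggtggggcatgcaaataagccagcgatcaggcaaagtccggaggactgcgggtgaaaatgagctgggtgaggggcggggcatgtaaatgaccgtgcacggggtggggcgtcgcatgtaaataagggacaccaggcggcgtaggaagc
Il13ra1: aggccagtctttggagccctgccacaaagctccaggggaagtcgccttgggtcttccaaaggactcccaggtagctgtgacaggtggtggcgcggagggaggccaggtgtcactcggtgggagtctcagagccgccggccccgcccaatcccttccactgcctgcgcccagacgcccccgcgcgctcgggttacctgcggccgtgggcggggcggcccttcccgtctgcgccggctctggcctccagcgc
Il13ra2: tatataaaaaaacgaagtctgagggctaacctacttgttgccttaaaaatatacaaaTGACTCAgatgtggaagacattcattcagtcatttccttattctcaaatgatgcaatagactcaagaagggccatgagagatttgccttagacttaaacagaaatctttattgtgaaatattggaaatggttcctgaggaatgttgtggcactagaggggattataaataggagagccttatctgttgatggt
Il11, outer start: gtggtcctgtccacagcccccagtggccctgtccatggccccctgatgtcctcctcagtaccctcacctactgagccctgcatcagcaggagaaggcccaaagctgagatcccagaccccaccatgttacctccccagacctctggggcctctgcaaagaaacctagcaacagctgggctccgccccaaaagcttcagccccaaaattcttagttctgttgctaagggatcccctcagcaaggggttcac
Il11, inner start: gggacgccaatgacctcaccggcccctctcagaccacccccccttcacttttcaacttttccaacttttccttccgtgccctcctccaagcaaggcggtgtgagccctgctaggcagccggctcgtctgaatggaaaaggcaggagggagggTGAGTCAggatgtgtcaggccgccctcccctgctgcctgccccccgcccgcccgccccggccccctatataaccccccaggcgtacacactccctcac

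TGACTCA stood 193 bases before the start of Il13ra2 and TGAGTCA 98 bases before the inner start of Il11, and the other 3 windows held no TGANTCA. Counting only the first window listed for each gene, which leaves out the inner start of Il11, these letters were found in 18.3% of the 71 windows of the family and in 6.87% of the windows of all 27025 genes. With every listed window counted, 21.1% of the 71 genes and 7.82% of all genes held them. Other letters searched on both strands, in the first window, were ACGTG, the core of the hypoxia response element (8.45% of the family, 16.6% of all), the STAT letters TTCNNNGAA (9.86% and 7.18%) and the STAT6 letters, TTC and GAA with any 4 bases between (12.7% and 5.86%). The kappa B letters, GGG and TTTCC with any 2 bases between, were found in 7.04% of the family and 1.40% of all. None of these 4 was in the 5 windows shown. A match is a description of letters in this window.

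Among the other gp130 genes, the receptor chains Osmr, Il6st and Il6ra each rose in 2 lines. Osmr, which joins gp130 to receive oncostatin M, went from 77.6, 101, 54.8 and 86.1 CPM to 122, 217, 99.5 and 170.0 CPM in 4T07, higher in each tumour (change 0.90 ± 0.09, adjusted p = 0.00029). In EMT6 it went from 101, 120.1, 95.7 and 119 CPM to 157, 175, 159 and 191 CPM without overlap (change 0.65 ± 0.05, adjusted p = 5.86e-06). D2A1 had low levels, 8.17, 8.89, 4.98 and 7.87 CPM and 11.0, 10.3, 7.11 and 12.9 CPM, with a change of 0.51 ± 0.21 that missed the threshold (adjusted p = 0.0950). Averaged over the lines, the change was 0.73 ± 0.06 (adjusted p = 3.02e-08), higher in 12 of 12 tumours.

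Il6st, which encodes gp130 itself, was the most abundant receptor of the family per exon length in 4T07 after Il13ra1. In 4T07 it rose from 284, 305, 235 and 276 CPM to 353, 363, 315 and 354 CPM (change 0.34 ± 0.07, adjusted p = 0.00759). That call was lost when scaling by total count (adjusted p = 0.0682) and without tumour 1 or 3 (0.0502 and 0.0556). In EMT6 it rose from 127, 149, 122 and 152 CPM to 199, 202, 184 and 214 CPM (change 0.54 ± 0.05, adjusted p = 2.27e-05). The gates did not overlap in either line. In D2A1, 215, 217, 238 and 218 CPM stood against 279, 286, 187 and 324 CPM (change 0.26 ± 0.15, adjusted p = 0.206), with tumour 3 lower and the other 3 higher. Without tumour 3 the D2A1 change was 0.45 (adjusted p = 0.000442).

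Il6ra, the IL-6 binding chain, moved differently between lines (adjusted p = 0.00116). In D2A1 it rose from 134, 115, 120.1 and 131 CPM to 229, 206, 201 and 249 CPM, with no overlap (change 0.82 ± 0.11, adjusted p = 9.82e-05). In EMT6 all 4 tumours rose, from 50.4, 49.7, 36.7 and 52.4 CPM to 95.3, 56.4, 45.5 and 66.8 CPM (change 0.45 ± 0.11, adjusted p = 0.00669), a call lost without the tumour block (adjusted p = 0.0994). 4T07 had 75.1, 69.1, 63.4 and 72.1 CPM and 58.7, 50.1, 69.2 and 70.1 CPM, with 1 tumour higher and no call (change -0.18 ± 0.11). Il11ra1, the IL-11 binding chain, rose in D2A1 from 5.94, 5.61, 4.98 and 5.76 CPM to 12.4, 12.3, 18.6 and 15.0 CPM (change 1.37 ± 0.22, adjusted p = 0.000424). Its change was 0.12 ± 0.15 in 4T07 and 0.30 ± 0.18 in EMT6, neither called, and the lines differed (adjusted p = 0.00641). Il11ra1 has a near-identical copy, Il11ra2, so its counts could be split between the 2.

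Of the gp130 ligands, Lif was abundant and moved little. It rose in EMT6 from 81.7, 178, 142 and 173 CPM to 102, 191, 152 and 205 CPM, higher in each tumour (change 0.19 ± 0.05, adjusted p = 0.0144). The spread between EMT6 tumours was wider than this change, and the call was lost without the tumour block (adjusted p = 0.638) and without tumour 4 (0.0774). In D2A1, 29.0, 29.9, 37.1 and 37.6 CPM went to 47.0, 55.3, 34.6 and 48.3 CPM (change 0.45 ± 0.16, adjusted p = 0.0499). Tumour 3 went down there, and the call at the edge of the threshold was lost under 7 alternatives, among them each fit without tumour 1, 2 or 4 (adjusted p = 0.195, 0.283 and 0.123). 4T07 had 169, 137, 139 and 109 CPM and 169, 111, 156 and 87.2 CPM, not called (change -0.11 ± 0.10).

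Il6 was near the floor in all lines: 1.40, 1.00, 0.884 and 0.823 CPM negative and 1.35, 1.38, 0.883 and 0.666 CPM high in 4T07, where it was not called (change 0.03 ± 0.31), and at most 0.881 CPM in D2A1 and 0.791 CPM in EMT6, where it was not tested. Osm, a cytokine made mainly by macrophages, neutrophils and T cells, fell in 4T07 from 11.1, 12.6, 23.3 and 15.1 CPM to 2.62, 3.04, 2.37 and 2.92 CPM (change -2.44 ± 0.23, adjusted p = 0.000179). The high libraries were all below the negative ones, and in D2A1 and EMT6 no library had more than 6 counts of Osm. In 4T07 the ligand Osm and its receptor Osmr changed in opposite directions. The summed macrophage markers fell in the same 4T07 pairs, and their part in the fall of Osm was not tested.

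In the IL-1 family, the ligands Il1a and Il1b, their decoy receptor Il1r2 and their antagonist Il1rn fell in 4T07. Il1b, the secreted inflammatory ligand, went from 47.4, 37.0, 52.1 and 38.8 CPM to 18.8, 13.7, 8.90 and 13.3 CPM (change -1.70 ± 0.20, adjusted p = 0.000551). Il1a, its cell-associated counterpart, went from 9.55, 9.56, 14.3 and 9.30 CPM to 2.44, 3.00, 1.10 and 1.05 CPM (change -2.56 ± 0.35, adjusted p = 0.00104). Il1r2, a receptor without a signalling domain, went from 3.69, 3.06, 3.11 and 3.16 CPM to 1.53, 1.34, 0.530 and 0.983 CPM (change -1.63 ± 0.29, adjusted p = 0.00370). None of the 3 overlapped between gates. In the other lines they were not tested, with at most 2.21 CPM in any library. The antisense transcript Il1bos overlaps Il1b, and whether the counting used strand is not given in the sources used here.

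Il1rn, which blocks the IL-1 receptor, fell in 4T07 and rose in EMT6, and the lines differed (adjusted p = 3.2e-05). The 4T07 levels were 25.2, 30.9, 33.0 and 32.5 CPM negative and 5.59, 8.96, 3.57 and 6.37 CPM high (change -2.36 ± 0.22, adjusted p = 0.000171), with no overlap. The EMT6 levels were lower, 0.351, 0.880, 1.27 and 1.93 CPM and 0.856, 1.84, 3.49 and 2.56 CPM, higher in each tumour (change 1.00 ± 0.26, adjusted p = 0.00958). That EMT6 call was lost without the tumour block (adjusted p = 0.152) and without tumour 2 (0.0782), and it rested on 6 to 70 counts per library. All 13 macrophage and monocyte markers also fell in 4T07, and their part was not tested. In EMT6, 2 of these markers rose and 1 fell, and the means of 11 of 13 were lower in the high gate. Their part in the EMT6 change of Il1rn was not tested.

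The signalling receptor Il1r1 also went in opposite directions (adjusted p = 0.00828 for the difference). It fell in each 4T07 tumour, from 103, 124, 97.2 and 114 CPM to 71.3, 114, 77.7 and 93.5 CPM (change -0.32 ± 0.09, adjusted p = 0.0221). It rose in each EMT6 tumour, from 26.0, 46.2, 30.4 and 46.5 CPM to 37.2, 53.3, 47.2 and 53.2 CPM (change 0.38 ± 0.08, adjusted p = 0.00407). Both pairs of gates overlapped. The 4T07 call was lost without tumour 1, 3 or 4 (adjusted p = 0.133, 0.0843 and 0.0782), and both were lost without the tumour block (0.161 in 4T07 and 0.189 in EMT6). In D2A1, 111, 102, 150.0 and 110.0 CPM stood against 166, 165, 128 and 165 CPM (change 0.41 ± 0.15, adjusted p = 0.0524), with tumour 3 alone going down. Without that tumour the D2A1 change was 0.61 (adjusted p = 5.51e-05). Il1rap, the accessory chain that IL-1 and IL-33 receptors share, rose in D2A1 (change 0.76 ± 0.13, adjusted p = 0.000583) with no overlap between gates. Its changes of 0.12 ± 0.10 in 4T07 and 0.04 ± 0.11 in EMT6 were not called, and the lines differed (adjusted p = 0.00469).

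In EMT6, IL-33 and its receptor were both among the first 5 genes of the family by level per exon length. Il33, a nuclear alarmin released from damaged cells, rose in D2A1 from 2.97, 2.34, 4.98 and 2.43 CPM to 9.83, 10.6, 10.4 and 14.0 CPM, with no overlap (change 2.05 ± 0.29, adjusted p = 0.000177). In EMT6, 313, 39.4, 52.7 and 58.5 CPM stood against 307, 68.8, 97.2 and 113 CPM (change 0.63 ± 0.14, adjusted p = 0.00550). Tumour 0 of EMT6 was far above the others in both gates and hardly changed, while the other 3 tumours rose. Without the tumour block that EMT6 call was lost (adjusted p = 0.739). Without tumour 0 the change was 0.89 (adjusted p = 8.93e-10). In 4T07, 10.9, 42.5, 16.2 and 23.4 CPM and 13.3, 74.2, 16.6 and 23.5 CPM gave a change of 0.29 ± 0.15 that was not called, and tumour 2 was highest in both gates. The lines differed for Il33 (adjusted p = 0.00457).

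Il1rl1 encodes ST2, the receptor of IL-33, and also a soluble decoy form that these gene counts do not separate. In D2A1 it rose from 104, 112, 73.1 and 69.9 CPM to 259, 237, 138 and 76.8 CPM, higher in each tumour but by little in tumour 4 (change 0.84 ± 0.17, adjusted p = 0.00221). In EMT6 it was the gene of the family with the most counts, 947, 653, 1129.7 and 668 CPM and 900.3, 1051, 1331 and 925 CPM (change 0.33 ± 0.10, adjusted p = 0.0221). Tumour 0 went down and 3 went up. The EMT6 call was lost with DESeq2 (adjusted p = 0.0626), without the tumour block (0.239) and without tumour 1, 2 or 4 (0.109, 0.0614 and 0.0954). 4T07 had at most 3.16 CPM, in the high library of tumour 2, and no call (change 0.66 ± 0.58). Il18, which is activated by the inflammasome, rose in EMT6 from 9.89, 4.87, 8.41 and 6.84 CPM to 16.5, 10.8, 9.98 and 11.4 CPM without overlap (change 0.70 ± 0.14, adjusted p = 0.00246). It also rose in each 4T07 tumour, from 5.98, 9.51, 7.46 and 7.68 CPM to 8.91, 12.2, 11.0 and 10.2 CPM (change 0.47 ± 0.12, adjusted p = 0.0167), a call lost without the tumour block (0.0662), with total-count scaling (0.0684) and without tumour 1, 3 or 4 (0.0895, 0.0802 and 0.0653).

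**Figure D3:**
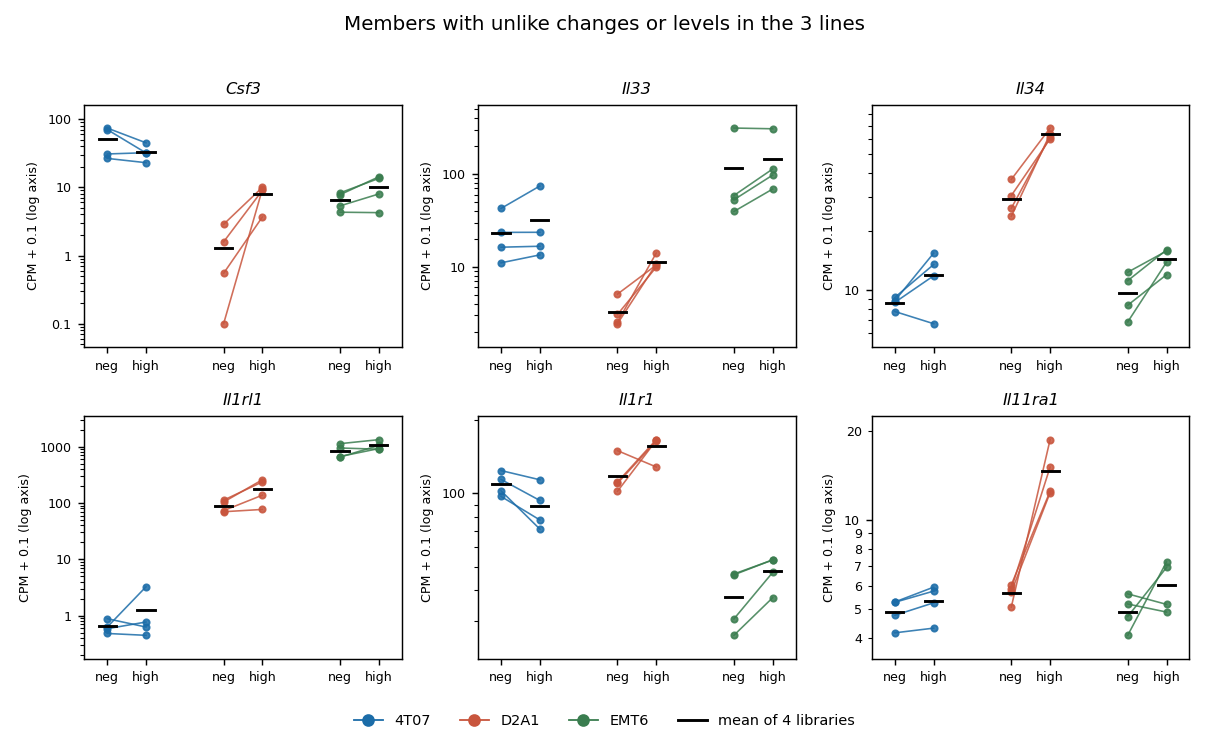
Levels (CPM + 0.1, log axis) of 6 genes whose change or level differed by line, with lines joining the 2 gates of 1 tumour and black bars at the mean of 4 libraries. Csf3 goes from at most 2.77 CPM to 3.58 to 9.89 CPM in D2A1 and is lower in 3 of 4 tumours in 4T07, and Il33 in EMT6 has 1 tumour above 300 CPM in both gates.

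Of the 11 genes tested in 4T07 among the common gamma chain group with the IL-4 and IL-13 receptors, 4 rose and 5 fell. Il2rg, the shared chain itself (chrX:101264378-101268255, minus strand), went from 6.62, 8.06, 14.2 and 9.58 CPM to 1.30, 1.42, 1.94 and 2.19 CPM (change -2.46 ± 0.19, adjusted p = 6.15e-05). Il7r, the IL-7 binding chain, went from 5.06, 10.1, 8.05 and 14.0 CPM to 0.603, 2.39, 0.318 and 1.84 CPM (change -3.02 ± 0.36, adjusted p = 0.000533). Il21r, the IL-21 binding chain, went from 1.92, 2.59, 3.60 and 2.50 CPM to 0.650, 0.851, 0.495 and 0.666 CPM (change -1.96 ± 0.32, adjusted p = 0.00232). In all 3 genes every high library was below every negative one. Il7r and Il21r were not tested in D2A1 or EMT6, where no library had more than 4 counts. Il2rg was tested there, with changes of -0.07 ± 0.26 in D2A1 and 0.09 ± 0.20 in EMT6, neither called, and the lines differed (adjusted p = 2.09e-05). T and NK cell markers and macrophage markers fell in the same 4T07 libraries, and their part was not tested.

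Other chains of this group did not all go down. Il15ra, which presents IL-15 to neighbouring cells, fell in 4T07 from 33.3, 23.8, 20.8 and 27.2 CPM to 14.4, 9.64, 11.6 and 14.6 CPM with no overlap (change -1.06 ± 0.12, adjusted p = 0.000421). It fell in each EMT6 tumour as well, from 13.9, 16.2, 23.3 and 20.6 CPM to 11.9, 10.7, 19.5 and 14.8 CPM (change -0.39 ± 0.09, adjusted p = 0.00542), a call lost without the tumour block (adjusted p = 0.202). In D2A1 the change was -0.70 ± 0.39 and was not called. Il2ra, the high-affinity IL-2 chain, was close to the floor and fell in 4T07 (change -1.42 ± 0.48, adjusted p = 0.0451), with 5 to 12 counts per high library. That call was lost with DESeq2 (0.0634), without the filter (0.0771), without the tumour block (0.0536) and without tumour 3 or 4 (0.168 and 0.176). Il2rb, the signalling chain shared by IL-2 and IL-15, rose in each 4T07 tumour (change 0.91 ± 0.21, adjusted p = 0.00962), from 2.80 to 4.67 CPM to 3.32 to 10.0 CPM. The call was lost without tumour 1 (adjusted p = 0.0708).

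Of the ligands for these receptors, Il15 rose in each EMT6 tumour (change 0.38 ± 0.10, adjusted p = 0.0130), a call lost without the tumour block (0.179) and without tumour 4 (0.0630). It was not called in 4T07 (-0.09 ± 0.20) or D2A1 (0.19 ± 0.21). Il7, a growth factor of lymphocytes made by stromal and epithelial cells, rose in each D2A1 tumour, from 41.6 to 53.8 CPM to 52.6 to 84.9 CPM (change 0.50 ± 0.13, adjusted p = 0.0104). That call was lost without tumour 1, 2 or 4 (0.0516, 0.0699 and 0.0952). Il7 differed between lines (adjusted p = 0.0437), with changes of -0.12 ± 0.17 in 4T07 and 0.21 ± 0.09 in EMT6, neither called.

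**Figure D4:**
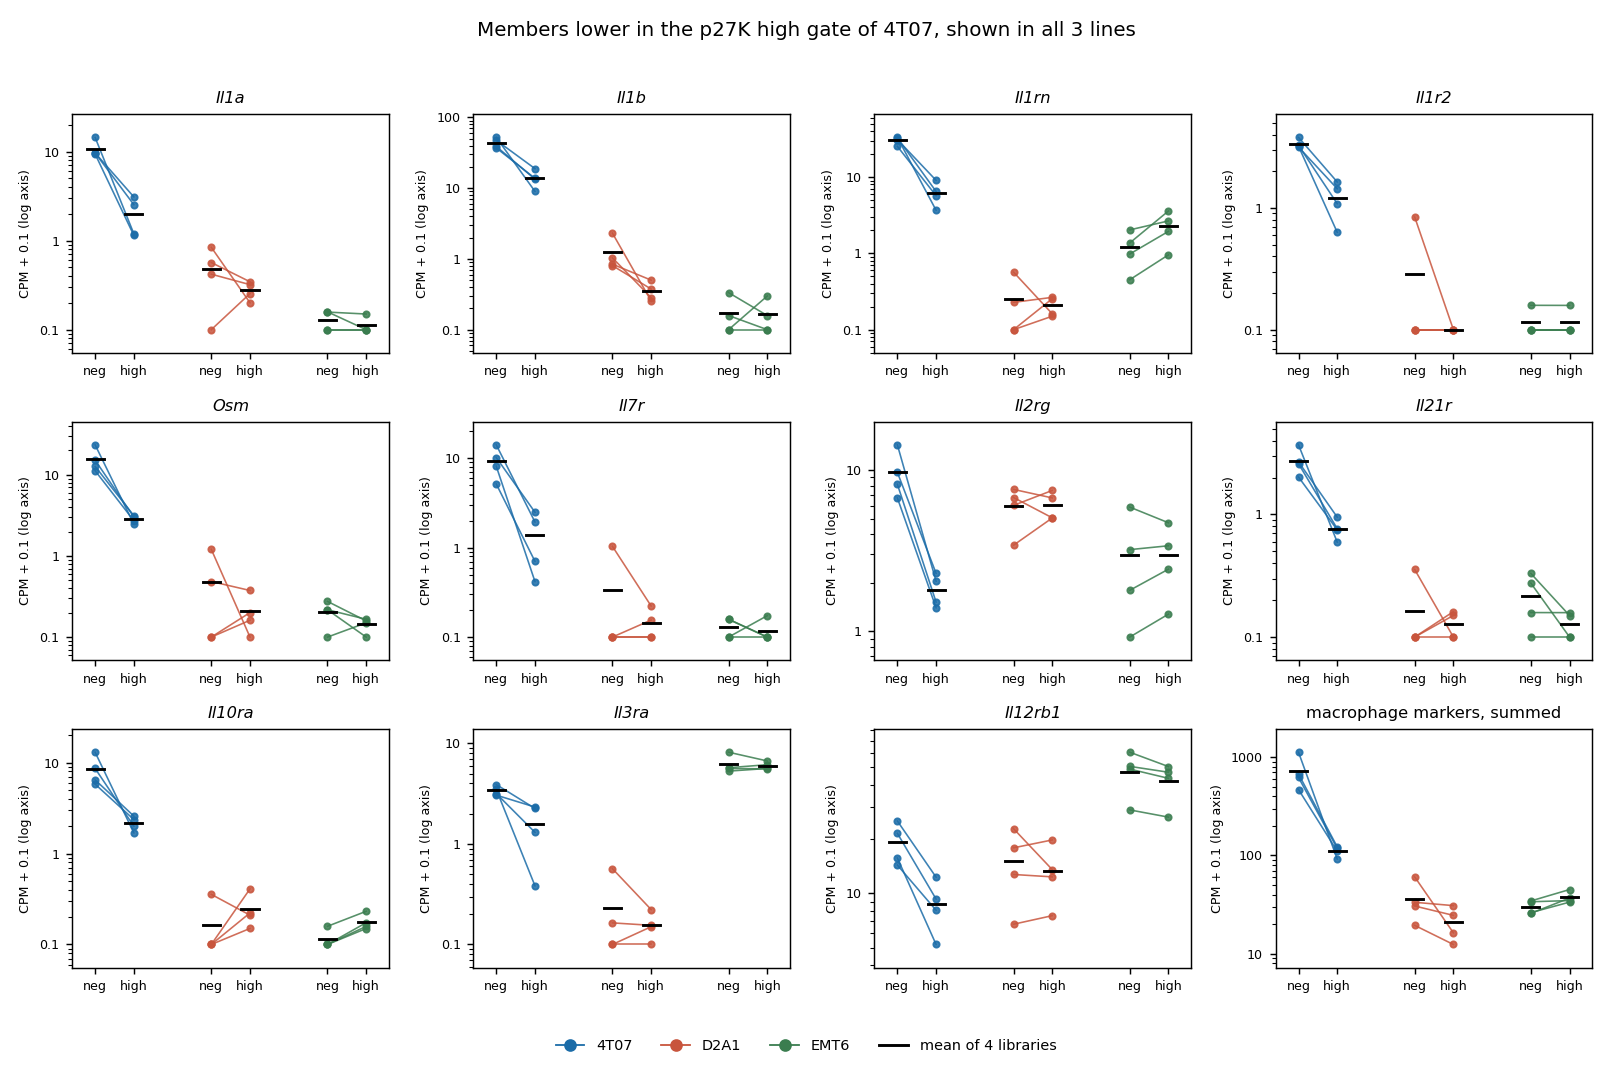
Levels (CPM + 0.1, log axis) in all 3 lines of 11 genes that fell in 4T07, and the sum of 13 macrophage and monocyte markers in the last panel, with lines joining the 2 gates of 1 tumour and black bars at the mean of 4 libraries. In 4T07 the marker sum goes from 469 to 1125 CPM to 91.7 to 122 CPM, and Il1a, Il7r and Osm lie near the 0.1 floor of the axis in D2A1 and EMT6.

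In the IL-10 family, the receptor chain Il10ra fell in 4T07 and its partner Il10rb rose in D2A1 and EMT6. Il10ra, the IL-10 binding chain of leukocytes, fell in 4T07 from 6.37, 5.70, 12.9 and 8.53 CPM to 2.48, 2.27, 1.59 and 1.90 CPM with no overlap (change -1.95 ± 0.30, adjusted p = 0.00192). It was not tested in the other lines, where no library held more than 4 counts. Il10rb, which also serves the IL-22 and interferon lambda receptors, rose in EMT6 from 10.9, 12.6, 11.6 and 13.3 CPM to 18.3, 19.3, 19.9 and 21.4 CPM (change 0.70 ± 0.08, adjusted p = 6.84e-05). In D2A1 it rose from 16.3, 23.4, 16.1 and 16.2 CPM to 24.03, 25.9, 27.2 and 26.5 CPM (change 0.55 ± 0.17, adjusted p = 0.0243), a call lost without tumour 1 or 4 (0.0816 and 0.157). Neither line showed overlap, and in 4T07 all 4 tumours were higher by 0.24 ± 0.10 without a call (adjusted p = 0.0857). Averaged over lines the change was 0.53 ± 0.07 (adjusted p = 3.54e-06), higher in 12 of 12 tumours. The ligand Il10 was not tested anywhere, with at most 0.366 CPM, in a negative library of 4T07.

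Il24, a cytokine of the IL-10 family, fell in EMT6 from 32.8, 2.70, 12.4 and 3.80 CPM to 8.96, 1.18, 3.79 and 3.96 CPM (change -1.31 ± 0.28, adjusted p = 0.00348). Tumour 0 was the highest in both gates, tumour 4 did not go down, and the call was lost without the tumour block (0.154). In 4T07 it fell in each tumour, from 0.274, 0.918, 2.85 and 0.329 CPM to 0.116, 0, 0.918 and 0.0317 CPM (change -2.30 ± 0.67, adjusted p = 0.0262), a call lost without the block (0.172) and without tumour 1 or 4 (0.0567 and 0.0752). Il12rb1, which IL-12 and IL-23 receptors share, fell in 4T07 from 21.4, 15.6, 25.1 and 14.2 CPM to 9.19, 5.11, 12.2 and 7.96 CPM with no overlap (change -1.17 ± 0.15, adjusted p = 0.000717). In EMT6 each tumour fell by a little, from 28.9, 48.7, 60.5 and 50.5 CPM to 26.4, 43.3, 50.3 and 46.8 CPM (change -0.17 ± 0.05, adjusted p = 0.0273). The EMT6 call was lost with DESeq2 (0.131), without the block (0.609) and without tumour 1, 2 or 4 (0.0800, 0.169 and 0.0665). The lines differed for Il12rb1 (adjusted p = 0.00298). Il23a, the p19 subunit of IL-23, rose in 4T07 at the edge of the threshold (change 0.45 ± 0.16, adjusted p = 0.0498) and lost the call under 7 alternatives, including each fit without a tumour (0.0528 to 0.130).

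In the IL-17 family, receptors moved and ligands were scarce. Il17rc, which pairs with Il17ra to receive IL-17A and IL-17F, rose in D2A1 from 52.7, 51.5, 48.7 and 60.3 CPM to 72.6, 79.4, 87.8 and 80.3 CPM (change 0.58 ± 0.13, adjusted p = 0.00380). In EMT6 it rose from 136, 108, 141 and 128 CPM to 193, 174, 203 and 190.1 CPM (change 0.57 ± 0.05, adjusted p = 1.29e-05). The gates did not overlap in either line. In 4T07, tumour 2 went down and the other 3 went up, 58.3, 40.8, 55.6 and 44.0 CPM against 74.3, 32.1, 58.0 and 66.9 CPM (change 0.17 ± 0.15, adjusted p = 0.385). Without tumour 2 the 4T07 change was 0.34 (adjusted p = 0.00846). Its partner Il17ra fell in 4T07 from 52.6 to 65.1 CPM to 32.2 to 44.3 CPM, with no overlap (change -0.60 ± 0.09, adjusted p = 0.00131). Il17ra was not called in D2A1 (0.22 ± 0.19) or EMT6 (-0.05 ± 0.07), and the lines differed (adjusted p = 0.00706).

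Il17rd, known for restraining FGF signalling, rose in D2A1 from 22.3, 20.1, 20.5 and 17.7 CPM to 33.5, 26.5, 22.9 and 28.9 CPM (change 0.49 ± 0.16, adjusted p = 0.0312). It rose in 3 of 4 EMT6 tumours, from 15.1, 27.5, 17.7 and 22.9 CPM to 14.6, 37.5, 27.3 and 31.0 CPM (change 0.39 ± 0.10, adjusted p = 0.0108). The D2A1 call was lost with DESeq2 (0.0656) and without tumour 1, 2 or 4 (0.123, 0.0906 and 0.211). The EMT6 call was lost without the block (0.270) and without tumour 1, 2 or 4 (0.0583, 0.0757 and 0.0519). 4T07 had at most 1.10 CPM and no call (-1.13 ± 0.53), and the lines differed (adjusted p = 0.0188). Il17d, the only IL-17 ligand that was called, rose in each 4T07 tumour, from 0.427, 0.500, 0.229 and 0.0274 CPM to 0.882, 3.57, 0.353 and 0.792 CPM (change 2.07 ± 0.61, adjusted p = 0.0273). Tumour 2 gave the highest value in both gates, and the call was lost without the block (0.0599) and without tumour 1 or 4 (0.0557 and 0.0823).

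The colony-stimulating factors and their partner ligands differed in direction and by line. Csf1, the macrophage growth factor, was among the highest per exon length in each line and fell slightly in EMT6, from 451, 608, 565 and 607 CPM to 361, 522, 536 and 555 CPM (change -0.19 ± 0.05, adjusted p = 0.0113). The EMT6 call was lost without the block (0.375) and without tumour 1 (0.0557). In 4T07 it measured 286, 256, 197 and 276 CPM and 232, 232, 192 and 211 CPM (change -0.22 ± 0.08, adjusted p = 0.0699), and in D2A1 399, 405, 366 and 510.5 CPM and 401, 355, 302 and 356 CPM (change -0.25 ± 0.12, adjusted p = 0.137). The average over lines was -0.19 ± 0.05 (adjusted p = 0.00729), lower in 11 of 12 tumours, and it was not called without the tumour block (adjusted p = 0.0706).

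Il34, the other ligand of the CSF-1 receptor, went the other way. In D2A1 it rose from 30.4, 26.2, 23.8 and 36.9 CPM to 59.7, 61.3, 63.2 and 67.8 CPM with no overlap (change 1.09 ± 0.14, adjusted p = 6.11e-05). In EMT6 each tumour rose, from 12.2, 6.75, 11.1 and 8.24 CPM to 15.7, 13.8, 16.0 and 11.9 CPM (change 0.60 ± 0.12, adjusted p = 0.00228). In 4T07 tumour 2 went down and the other 3 up, 9.06, 7.65, 8.71 and 8.53 CPM against 13.4, 6.60, 15.4 and 11.7 CPM (change 0.42 ± 0.18, adjusted p = 0.0943), and without tumour 2 the change was 0.61 (adjusted p = 0.000796). Averaged over lines Il34 rose by 0.74 ± 0.09 (adjusted p = 2.88e-06), in 11 of 12 tumours.

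Csf3, which encodes the granulocyte factor G-CSF, had one of the clearest differences between lines (adjusted p = 0.00039). In D2A1 it went from 1.48, 0, 2.77 and 0.448 CPM to 8.93, 9.31, 9.89 and 3.58 CPM, with no overlap (change 2.89 ± 0.44, adjusted p = 0.000269), on 0 to 7 counts per negative library. In EMT6, 4.21, 7.68, 5.24 and 8.19 CPM stood against 4.15, 14.1, 7.88 and 13.4 CPM, higher in 3 of 4 tumours (change 0.58 ± 0.15, adjusted p = 0.00851). That call was lost without the block (0.200) and without tumour 1 or 4 (0.0613 and 0.0536). In 4T07 the levels were higher, 73.8, 70.2, 30.7 and 26.4 CPM and 44.8, 31.8, 32.0 and 22.9 CPM, lower in 3 of 4 tumours and not called (change -0.51 ± 0.19, adjusted p = 0.0627). DESeq2, the fit without a filter, total-count scaling and the fit without tumour 3 called that 4T07 fall (0.0236, 0.0459, 0.0407 and 0.0269). Csf2, the GM-CSF gene, was tested in 4T07 alone, 1.34, 1.78, 0.393 and 1.13 CPM against 0.952, 3.61, 0.565 and 0.887 CPM, and was not called (change 0.17 ± 0.37). Il3ra, the IL-3 binding chain, fell in 4T07 from 2.96, 3.39, 3.80 and 3.07 CPM to 2.23, 0.284, 2.15 and 1.20 CPM (change -1.33 ± 0.46, adjusted p = 0.0473), a call lost without the block (0.0823) and without tumour 1, 3 or 4 (0.0614, 0.0743 and 0.119). Il16, a chemoattractant of CD4+ cells, fell in 4T07 from 0.671, 1.08, 0.884 and 1.56 CPM to 0, 0.446, 0.318 and 0.444 CPM (change -2.02 ± 0.63, adjusted p = 0.0331), on at most 14 counts per high library, and lost the call without the block (0.0661) and without tumour 1, 3 or 4 (0.0555, 0.0716 and 0.0976).

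With all 12 tumours in 1 fit, 53 of the genes were tested. The average over lines rose for 20 and fell for 10, 30 of 53, where 52.4% of all 13578 genes were called. Il4ra had the smallest p of the rises (0.72 ± 0.06, adjusted p = 9.72e-09), followed by Il13ra2 (1.91 ± 0.16, 2.84e-08), Osmr and Il11 (0.71 ± 0.08, 7.54e-07), each higher in 12 of 12 tumours. Among the falls, Il2rg had the smallest p (-0.78 ± 0.13, adjusted p = 5.66e-05), although it was lower in 7 of 12 tumours only and its lines differed. Il2ra, Il21r and Osm were also called lower on average, but no library outside 4T07 had more than 6 counts of any of them. The average call of Il21r was lost without D2A1 tumour 4 (-0.33 in place of -1.97, adjusted p = 0.941) and that of Osm without EMT6 tumour 4 (adjusted p = 0.0608). That of Il2ra was lost with DESeq2 (adjusted p = 0.524). Without D2A1 tumour 2 or EMT6 tumour 2 the fits gave changes of -1.37 and -2.19 for Il2ra but no SE. Those fits therefore do not test its average call. Il23a was called lower on average (-0.87 ± 0.30, adjusted p = 0.0211), although it was higher in 9 of 12 tumours. That call was lost without D2A1 tumour 1 (0.392) and without the tumour block (0.438). Il24 was also lower on average (-1.34 ± 0.52, adjusted p = 0.0405). Its call was lost without the block (0.297) and without 4T07 tumour 4, D2A1 tumour 1 or 4, or EMT6 tumour 1 or 2 (0.0516 to 0.377). Il1rl2, the IL-36 receptor, was called lower on average (-0.999 ± 0.36, adjusted p = 0.0282) but in no single line, and it was higher in 5 of 12 tumours. The change differed between lines for 16 of 53, where 24.5% of all genes differed, and for 9 without the tumour block. The lines had different sequencing runs, so these are differences between line and run together.

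The signalling genes downstream of these receptors were read from a list of 59 kinases, STATs, adaptors, inhibitors and partner receptors. In 4T07, 9 of 56 tested rose and 13 fell. In D2A1, 12 of 49 rose and 5 fell, and in EMT6, 17 of 47 rose and 9 fell. The shares called were 39.3%, 34.7% and 55.3%, beside 45.7%, 29.5% and 49.2% of all genes. Without tumour 1 or 2 the D2A1 calls came to 11 and 10, and without tumour 2 or the tumour block the EMT6 calls came to 17 and 15. The median changes were 0.02, 0.18 and 0.08, beside -0.00, 0.02 and 0.02 over all genes. Stat3, the main transcription factor of gp130 signalling, rose in every line with no overlap between gates, by 0.51 ± 0.07 in 4T07 (203 to 246 CPM negative, 289 to 367 CPM high), 0.61 ± 0.11 in D2A1 and 0.43 ± 0.05 in EMT6 (adjusted p = 0.00115, 0.00117 and 0.000131). Irak2, a kinase of IL-1 signalling, also rose in all 3 lines, by 0.52 ± 0.09, 0.62 ± 0.14 and 0.33 ± 0.09 (adjusted p = 0.00359, 0.00514 and 0.0167).

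Stat6, Tyk2, Jak3, Traf3ip2, Stat5a and Clcf1 rose in both D2A1 and EMT6. Stat6, the factor downstream of Il4ra, rose by 0.40 ± 0.11 in D2A1 and 0.17 ± 0.04 in EMT6 (adjusted p = 0.0157 and 0.00992), with 0.17 ± 0.09 in 4T07 not called. Tyk2, a JAK kinase, rose by 0.84 ± 0.13 and 0.57 ± 0.07 in these lines, and Jak3, the partner kinase of the common gamma chain, by 1.02 ± 0.12 and 0.28 ± 0.06. In 4T07 the changes were 0.09 ± 0.16 for Tyk2 and 0.23 ± 0.11 for Jak3, neither called, and the lines differed (adjusted p = 0.0180 and 0.00143). Traf3ip2, which encodes the IL-17 receptor adaptor Act1, rose by 0.67 ± 0.14 and 0.63 ± 0.07, and Stat5a by 0.89 ± 0.15 and 0.27 ± 0.10. The EMT6 call of Stat5a was near the threshold (adjusted p = 0.0479). Its 4T07 change of 0.27 ± 0.14 was not called, and the lines differed for Stat5a (adjusted p = 0.0265). Clcf1, a gp130 ligand, rose by 1.09 ± 0.14 in D2A1 and 0.35 ± 0.06 in EMT6. Traf6, the ubiquitin ligase of IL-1 and IL-17 signalling, rose in 4T07 and EMT6 (0.62 ± 0.10 and 0.26 ± 0.06), and Tollip, a brake on IL-1 signalling, in 4T07 alone (0.42 ± 0.10).

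Receptors of the colony-stimulating factors had the smallest p for a difference between lines in this list. Csf1r, the receptor of Csf1 and Il34, fell in 4T07 from 38.0 to 91.7 CPM to 8.20 to 10.2 CPM (change -2.63 ± 0.22, adjusted p = 9.51e-05). In EMT6 it rose from 4.86 to 9.91 CPM to 7.18 to 13.6 CPM (change 0.70 ± 0.13, adjusted p = 0.00182), and in D2A1 it was not called (-1.39 ± 0.56, at most 3.27 CPM). Csf2rb, the shared chain of the IL-3, IL-5 and GM-CSF receptors, fell in 4T07 (-1.98 ± 0.22, adjusted p = 0.0004) and rose in D2A1 (2.21 ± 0.32, adjusted p = 0.00021), with no overlap in either. Csf2rb2, its near-identical copy, fell in 4T07 (-2.69 ± 0.18, adjusted p = 3.75e-05), and reads could be split between the copies. Csf1r is itself one of the 13 macrophage and monocyte markers. The other 12 all fell in 4T07 (a sum of 431 to 1033 CPM negative and 83.5 to 113 CPM high). In EMT6 the sum of the other 12 was higher in 2 tumours and lower in 2 (18.5 to 28.8 CPM negative, 19.7 to 31.9 CPM high). Their part in the change of Csf1r was not tested.

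**Figure D5:**
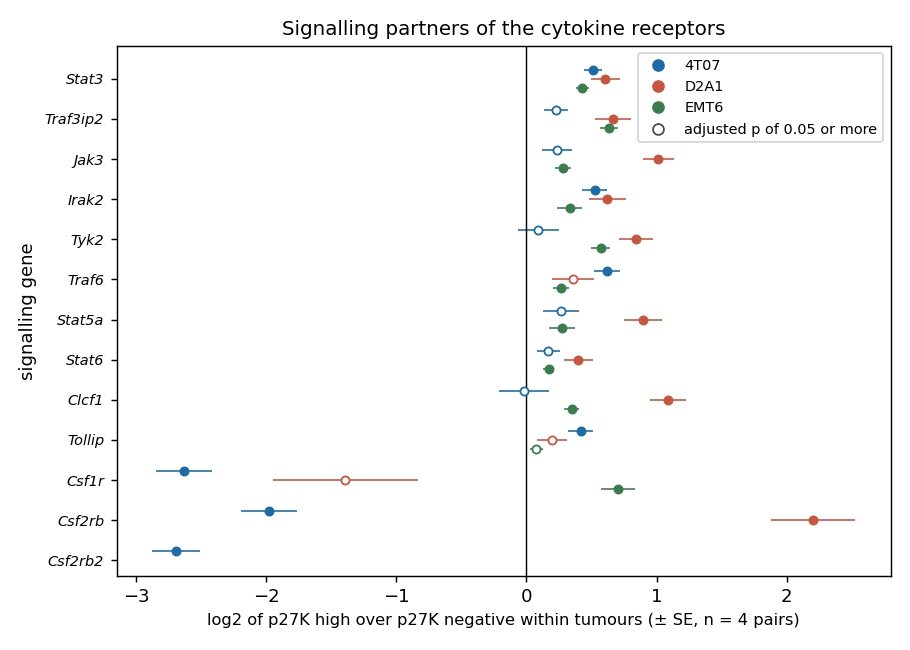
Change of 13 signalling and partner receptor genes in each line, on the x axis as log2 of the high over the negative gate (± SE, n = 4 tumour pairs), with filled points for an adjusted p under 0.05. Stat3 and Irak2 are right of 0 in all 3 lines, and Csf1r lies at -2.63 in 4T07 and 0.70 in EMT6.

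Levels between genes were compared per kilobase of exon, as the mean CPM of the high gate divided by the length of all exons merged. In 4T07 the order in CPM per kilobase was 77.1 for Il11, 73.5 for Il13ra1, 41.0 for Csf1, 31.2 for Il6st and 30.1 for Lif. In D2A1 Csf1 led with 66.9 CPM per kilobase, before Il34 (32.2), Il17rc (30.0), Il1rl1 (25.8) and Il6ra (25.6). In EMT6 Il1rl1 was first with 153, then Csf1 (93.4), Il17rc (71.2), Il33 (50.8) and Lif (37.4). Between neighbours in these orders, the high libraries did not overlap for Il13ra1 and Csf1 or Csf1 and Il6st in 4T07, Csf1 and Il34 in D2A1, or Il1rl1 and Csf1 in EMT6. All other neighbours overlapped. Il11 was above Il13ra1 in 2 of the 4 high libraries of 4T07, and without tumour 2 it came second (59.0 against 66.8 CPM per kilobase), as it did without tumour 1. Without tumour 0, Il33 in EMT6 was at 32.2 CPM per kilobase and came after Lif (42.0).

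The remaining 50 genes were called in no line. Tested without a call were 13 genes, among them Csf2, Il4 and Il6 above. Il18rap, the second chain of the IL-18 receptor, was the most abundant of these, with means of 133 CPM negative and 153 CPM high in D2A1 and changes of 0.35 ± 0.18 in 4T07, 0.18 ± 0.13 in D2A1 and -0.15 ± 0.10 in EMT6. Il18bp, the soluble inhibitor of IL-18, changed by -0.05 ± 0.09, -0.39 ± 0.25 and 0.19 ± 0.10. Lifr, the LIF binding chain, was low in each line, with 3.71, 1.87, 1.66 and 2.05 CPM negative and 3.06, 4.41, 2.78 and 6.22 CPM high in D2A1 (change 1.07 ± 0.39, adjusted p = 0.0573). A p above the threshold does not show that a gene was the same in both gates. A further 27 genes had counts but passed the filter in no line, and 10 had no count in any library.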

How the data were processed

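The authors deposited 3 tables of raw counts per gene, 1 per line, for 24 bulk RNA-seq libraries from 12 tumours. GENEWIZ made the gene count matrices per the labels' protocols, and the submitters' processing notes name mm10 and DESeq2; for the aligner, annotation and strand, nothing is given in the sources used here. Rows without a gene name (at most 0.0109% of counts), the totals row and 4 date-like names per table were left out. The 4T07 columns say "low" where the titles say Neg and were read as the negative gate. Tumour numbers in the labels pair the 4T07 and the D2A1 libraries. EMT6 was paired by its column numbers (0, 1, 2 and 4, unlike the titles), since deviations from the gate mean within a number correlated at 0.574 to 0.813 over 5000 genes (4T07 0.195 to 0.801, D2A1 0.0834 to 0.294).

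Changes were tested with edgeR 4.0.16 (R 4.3.3), with TMM scaling, its default filter, the tumour as a block and Benjamini-Hochberg adjustment over all genes tested in each line. A joint fit of 12 tumours tested the average change and, by an F test, its difference between lines. On simulated counts the line fits recovered 95% (4T07), 85.9% (D2A1) and 98% (EMT6) of 2-fold changes. False calls made up 5.34%, 4.17% and 1.98% of the calls there. The changed genes in this simulation had a mean above 1 CPM, and no difference between tumours was drawn. It does not cover genes near the floor or changes smaller than 2-fold. DESeq2 1.42.0, other scalings and filters, no block and leaving out each tumour were alternatives, and 1 was added after seeing the data (all D2A1 libraries thinned to the smallest total). With the tumour block, p-values measure how far the gate difference within a tumour varied among the tumours of 1 experiment. The genes, their lists and the markers were chosen with earlier results of these data known. Named are all genes called in a line, with values for each library where they were called in 2 lines or changed at least 2-fold, plus 11 set ligands and antagonists. Gene positions and exon lengths are from GENCODE vM21 (GRCm38), and promoters from RefSeq.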

Additional observations from a re-analysis of the deposited data

Results flagged for a closer look

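The gate change of 16 genes differed between the lines by the F test of the joint fit. The adjusted p was 2.09e-05 for Il2rg, 3.2e-05 for Il1rn, 0.00039 for Csf3, 0.00116 for Il6ra and 0.00146 for Il23a. It was 0.00298 for Il12rb1, 0.00457 for Il33, 0.00469 for Il1rap, 0.00476 for Il13ra2, 0.00641 for Il11ra1 and 0.00706 for Il17ra. For Il1r1 it was 0.00828, for Il4ra 0.0130, for Il11 0.0182, for Il17rd 0.0188 and for Il7 0.0437. Il23a rests on few reads outside 4T07, with at most 7 counts in any D2A1 library.

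In 18 of 174 groups of 4 libraries, 1 library lay apart from the other 3, where chance flags about 1 in 20 groups. Of these, 4 were the 4T07 high library of tumour 2, which also had the fewest genes detected in that line (13500, against 15094 to 15370 in the others). It had 74.2 CPM of Il33 (the other 3 had 13.3 to 23.5), 3.61 CPM of Csf2 (0.565 to 0.952), 3.57 CPM of Il17d (0.353 to 0.882) and 3.16 CPM of Il1rl1 (0.349 to 0.673). In 4T07 also, Il24 had 0.918 CPM in the high library of tumour 3, Il1a 14.3 CPM in the negative library of tumour 3, and Il1r2 3.69 CPM in the negative library of tumour 1.

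In EMT6, tumour 0 lay apart for Il33 (313 CPM negative, others 39.4 to 58.5), Il3ra (8.08 CPM negative) and Csf1 (361 CPM high, others 522 to 555). Tumour 2 lay apart for Il13ra2 (5.44 CPM high) and Il6ra (36.7 CPM negative). In D2A1, tumour 3 lay apart for Il1r1 (128 CPM high), Il16 (0.155 CPM high), Il1b (2.21 CPM negative) and Il6st (238 CPM negative). The other D2A1 libraries apart were tumour 4 for Csf3 (3.58 CPM high) and tumour 2 for Il10rb (23.4 CPM negative).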

How the results depend on the processing

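The tumour block mattered most in EMT6. Without the replicate block, 10 of the genes were called in EMT6 in place of 23, 15 of the signalling genes in place of 26, and 9 genes differed between lines in place of 16. In 4T07 the count without the block was 18 and in D2A1 17. Leaving out 1 tumour gave 17 to 32 calls in 4T07 (27 with all), 12 to 20 in D2A1 (16) and 18 to 24 in EMT6 (23). For the signalling genes it gave 10 to 22 in D2A1 (17), 17 to 31 in EMT6 (26) and 17 to 32 in 4T07 (22). DESeq2 called 28, 13 and 21 genes in the 3 lines, and no called gene changed direction under any alternative run. Of the genes called, 15 of 27 in 4T07, 11 of 16 in D2A1 and 10 of 23 in EMT6 were called under every alternative that tested them. Thinning all D2A1 libraries to the smallest left 13 called, all higher: Il11 and Lif lost the call, and Csf3 was no longer tested. Csf3 is counted among the 11 of D2A1 above. The 3 shallow D2A1 negative libraries limit what can be seen below about 10 CPM in that line. Each value is from 4 tumours, 1 sequencing run per line, and sorted bulk cells.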
